A study of Mus musculus with 8 samples.

Results

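The genes described here are 10 genes of the neutrophil and of the colony-stimulating factor (CSF) system, taken by name from a table of 27179 genes. They are the ligands Csf1, Csf2 and Csf3, the receptor Csf3r, the calprotectin subunits S100a8 and S100a9, Mmrn1, Retnlg, and the granule protein genes Ngp and Camp, and all 10 had enough reads to be tested. RNA was sequenced from whole primary tumours of BALB/c mice, 4 of the 4T1.13-VC line and 4 of the 4T1.13-miR-21-KD line, each raised by injection of 100000 cells into the mammary fat pad. The labels put recovery at day 14 after injection, whereas the methods of the study name an earlier day. The question was which transcripts differ between control tumours and tumours with suppressed miR-21 activity.

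4T1.13 is a metastatic mouse mammary carcinoma line. Cells of both groups carried the miArrest lentiviral vector with the mCherry reporter and hygromycin B resistance. In miR-21-KD cells its H1 promoter drives an RNA that binds and sequesters the mature miR-21, while in VC cells it drives a scrambled RNA that does not. Both lines were made by pooling 6 clones. The vector is in the tumour cells alone, so the neutrophils and other host cells of both groups had their own miR-21. The mature microRNA was not measured by these libraries. The row of its precursor gene was at 0 counts in all 8 tumours, and the knockdown could not be checked here.

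Between 12134849 and 13592695 reads were counted on genes per VC tumour and between 12550898 and 12783800 per miR-21-KD tumour. At least 1 count was found for 20730 genes, and 14382 were tested. A count of 0 allows up to 3 counts, or 0.221 to 0.245 CPM, the count relative to the library's total, which covers counting error only. The first principal component, with 67.5% of the variance, separated the groups. The second, with 13.5%, set VC tumour 4 apart from the other 7, and this tumour also had the most reads of the B cell genes listed other than Cd22, with 12727 counts of Jchain and 312 of Ms4a1. The next highest Ms4a1 count was 165, in miR-21-KD tumour 4. Since the libraries are bulk tumour RNA, fewer cells of a type and less RNA per cell cannot be told apart.

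CSFs are secreted glycoproteins that direct the production, survival and activation of myeloid cells. M-CSF, encoded by Csf1, acts on macrophages through the receptor Csf1r. GM-CSF (Csf2) acts on granulocytes, macrophages and dendritic cells through Csf2ra and the common beta chain Csf2rb, and G-CSF (Csf3) drives the making and release of neutrophils through Csf3r. Maturing neutrophils fill their granules with proteins such as neutrophilic granule protein (Ngp) and cathelicidin (Camp) in the bone marrow and stop most of that transcription when they leave it, whereas S100a8, S100a9, Retnlg and Csf3r are transcribed by circulating neutrophils. 4T1 tumours are known for the accumulation of neutrophils in blood and spleen of the host. Mmrn1 encodes multimerin 1, an adhesive protein stored by platelets and endothelial cells, and is not a neutrophil gene.

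The mature microRNA that the vector sequesters lies at chr11:86584120-86584141 on the minus strand (GRCm38.p6, RefSeq), and is shown because its seed, bases 2 to 8 and here in capitals, is what pairs with targets.
mmu-miR-21a-5p: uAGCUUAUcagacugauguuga
The DNA letters that pair with this seed, ATAAGCT, were searched on the sense strand of the longest 3′ untranslated region of each of the 10 genes. The search found 0 matches in 0 of 10 genes, against 7.75% of the 13219 tested genes with such a region. These regions ran from 56 bases in Camp to 2111 in Csf1, against a median of 1171 over the tested genes, and among tested genes with regions of 80 to 125% of that length the share with a match was between 0% and 9.76%. The search says only that these letters are not in these stretches.

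Promoters were taken from RefSeq (GRCm38.p6) as 250 bases before to 50 bases after the start of the gene, and 9 of the 10 genes had one. Csf3 had no entry. The letters TTGCNNAA, or TTNNGCAA on the other strand, form the core recognised by C/EBP factors, which drive granule genes in neutrophil precursors. They were found in 4 of the 9 promoters and in 10.8% of 32851 mouse promoters. A position that reads on both strands was counted once. The first base of the match lay at -138 and -11 in Ngp, at -236 in S100a9, at -246 in Retnlg and at -145 in Csf2. Positions count from the RefSeq start, which for some genes differs from the start in GENCODE vM21, used for the gene positions below. The Csf2 window (chr11:54249850-54250149, minus strand) lies wholly before the GENCODE start of that gene. For Mmrn1 the window (chr6:60944067-60944366, plus strand) lies inside the GENCODE gene. Promoters of the calprotectin pair and of the granule pair follow, 5′ to 3′ on the strand of the gene with matches in capitals, since the members of each pair went up and down together across tumours. Only 1 promoter of each pair holds the letters. The coordinates are chr3:90668821-90669120 (plus strand) for S100a8, chr3:90695672-90695971 (minus) for S100a9, chr9:110419558-110419857 (plus) for Ngp and chr9:109849407-109849706 (minus) for Camp.
S100a8: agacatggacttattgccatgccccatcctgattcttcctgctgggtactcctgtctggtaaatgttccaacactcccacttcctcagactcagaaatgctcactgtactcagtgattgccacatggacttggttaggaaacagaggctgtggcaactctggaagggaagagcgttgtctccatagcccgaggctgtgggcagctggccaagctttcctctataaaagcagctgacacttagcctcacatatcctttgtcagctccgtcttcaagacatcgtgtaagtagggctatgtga
S100a9: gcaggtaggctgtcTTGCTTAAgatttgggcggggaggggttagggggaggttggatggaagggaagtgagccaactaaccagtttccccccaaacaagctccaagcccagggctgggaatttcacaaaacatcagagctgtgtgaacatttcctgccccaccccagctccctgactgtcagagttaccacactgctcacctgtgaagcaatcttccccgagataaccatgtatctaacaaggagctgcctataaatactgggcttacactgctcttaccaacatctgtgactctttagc
Ngp: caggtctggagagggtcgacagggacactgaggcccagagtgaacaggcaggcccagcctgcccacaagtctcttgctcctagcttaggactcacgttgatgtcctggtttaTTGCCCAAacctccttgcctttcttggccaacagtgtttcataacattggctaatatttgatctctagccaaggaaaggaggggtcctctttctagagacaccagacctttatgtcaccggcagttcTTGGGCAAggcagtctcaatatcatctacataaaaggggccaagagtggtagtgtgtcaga
Camp: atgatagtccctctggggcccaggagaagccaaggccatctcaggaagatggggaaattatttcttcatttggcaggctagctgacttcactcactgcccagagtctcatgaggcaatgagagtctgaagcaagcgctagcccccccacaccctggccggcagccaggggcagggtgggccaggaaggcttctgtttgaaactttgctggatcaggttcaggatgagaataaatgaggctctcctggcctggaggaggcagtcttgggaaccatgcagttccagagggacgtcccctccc

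Of the 10 genes, only Csf2 passed the test, with a level 2.9-fold higher in miR-21-KD tumours, and 0 were lower in edgeR, DESeq2 or limma-voom. In the test used (the quasi-likelihood test of edgeR, Benjamini-Hochberg adjusted p under 0.05 over 14382 genes) 39.1% of all genes were called, 19.6% higher and 19.5% lower. Of the 10 genes 10% were called, and the difference between these shares was not tested. Of the 10 genes, 7 had at least 10 counts in every tumour. Csf2 and Camp each reached it in 6 tumours (2 VC and 4 miR-21-KD), and Mmrn1 in 4 (3 VC and 1 miR-21-KD). Csf2, the gene called, thus reached it in more tumours of the group where it was higher. At an unadjusted p under 0.05 there were 3 of the 10 genes (Csf2, Csf3r and Mmrn1) and 50.7% of all tested genes. As a median, the log2 fold change was 0.11 over the 10 genes and -0.01 over the whole tested table, with 5 genes above 0 and 5 below. The groups did not overlap for Csf2 and overlapped for the other 9, while 35.2% of tested genes did not overlap, 16.3% with miR-21-KD tumours above and 18.9% below.

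**Figure D1:**
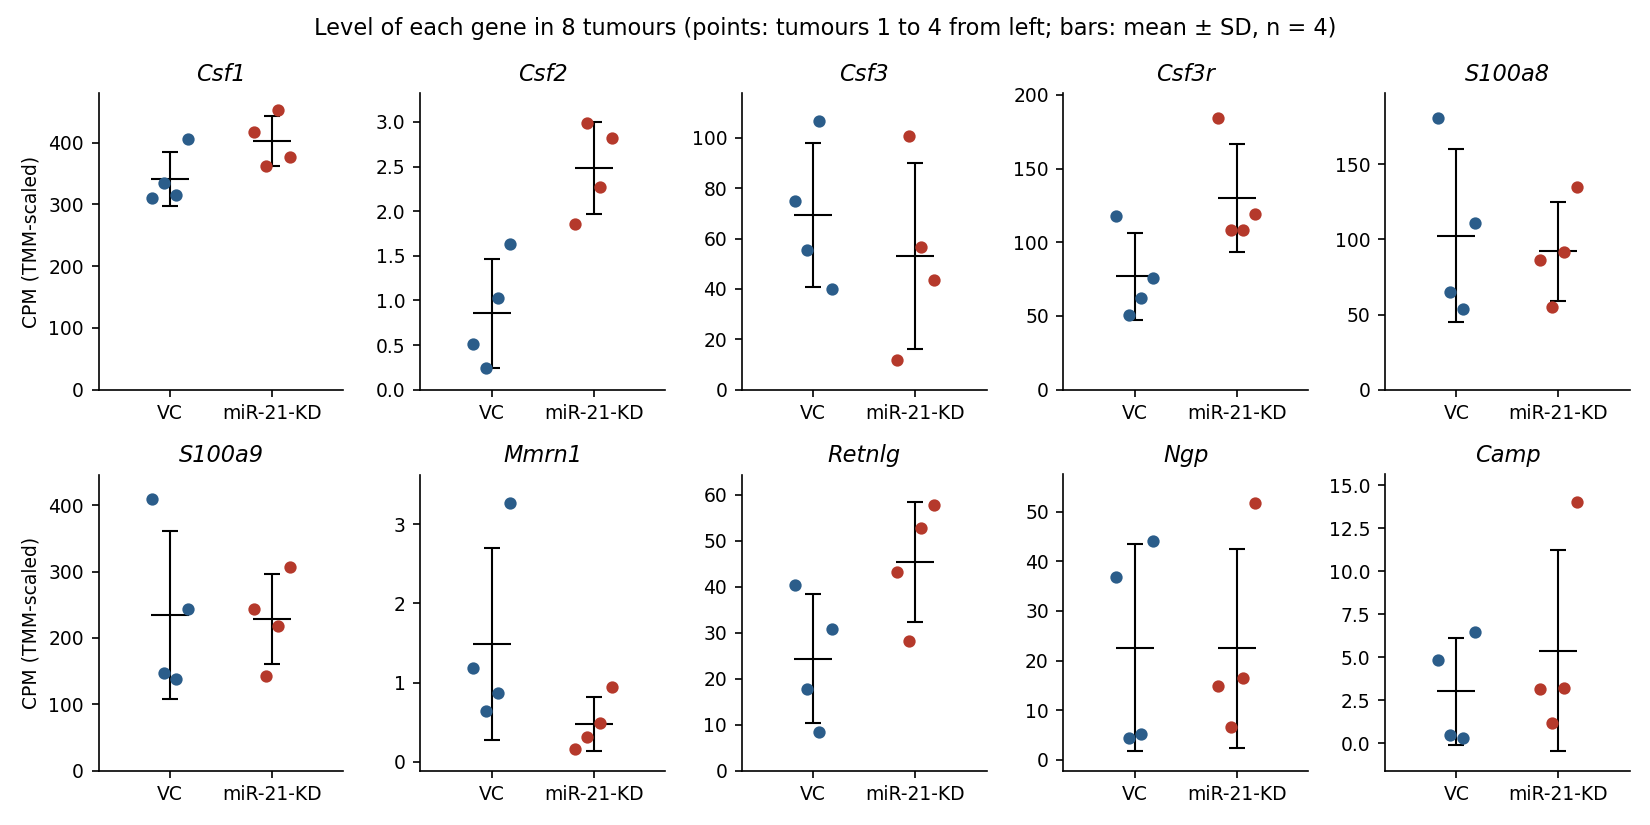
Level of the 10 genes in CPM scaled by the TMM method (linear axes), with 1 point for each tumour, VC in blue and miR-21-KD in red, and the mean ± SD of 4 tumours in black. The groups are apart for Csf2 only, from 0.239 to 1.63 CPM in VC and from 1.86 to 2.99 CPM in miR-21-KD.

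**Figure D2:**
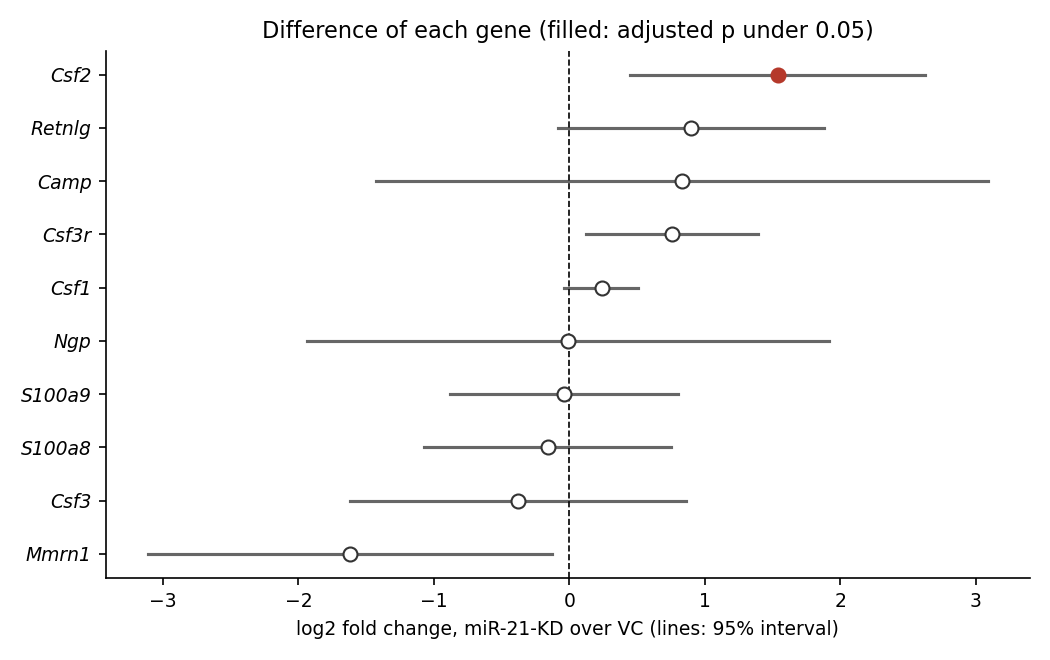
Log2 fold change of miR-21-KD over VC for the 10 genes (points) with its 95% interval (lines), from the fit over all tested genes. Csf2, the filled point, passed at adjusted p under 0.05. The intervals of Csf3r and Mmrn1 lie on 1 side of 0 without passing after adjustment, and that of Camp runs from -1.43 to 3.09.

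Per kilobase of exon (RPKM, from the exon lengths of GENCODE vM21), the levels spanned from calprotectin at the top to multimerin at the bottom. In VC tumours S100a9 stood at 449 ± 241 RPKM and S100a8 at 148 ± 83.0 (SD, n = 4). Csf1 (64.7 ± 8.24), Csf3 (49.1 ± 20.3), Retnlg (41.1 ± 23.8), Csf3r (21.3 ± 8.14) and Ngp (18.5 ± 17.0) followed in that order of RPKM. Camp (4.00 ± 4.10), Csf2 (1.07 ± 0.767) and Mmrn1 (0.254 ± 0.206) were the lowest in RPKM. The mean ± SD of each neighbour in this order overlapped with the next. In miR-21-KD tumours the RPKM order was S100a9 (437 ± 130), S100a8 (133 ± 47.1), Retnlg (76.7 ± 22.0), Csf1 (76.3 ± 7.78), Csf3 (37.7 ± 26.1), Csf3r (36.0 ± 10.1), Ngp (18.4 ± 16.4), Camp (7.12 ± 7.68), Csf2 (3.11 ± 0.645) and Mmrn1 (0.0811 ± 0.0573). There S100a9 and S100a8, Csf1 and Csf3, and Csf2 and Mmrn1 were separated by more than their SD ranges. Retnlg stood below Csf1 and Csf3 in the VC order and above both in the miR-21-KD order, by less than the SD from Csf1.

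Csf1 (Entrez 12977, chr3:107741048-107760469, minus strand) was the most even of the genes. The VC tumours 1 to 4 had 310.9, 335.4, 315.9 and 405.2 CPM. The miR-21-KD tumours 1 to 4 had 417.7, 362.4, 453.3 and 377.2 CPM. Thus 2 of 4 miR-21-KD tumours were above every VC tumour, and VC tumour 4 was the highest of its group. The means were 341.8 ± 43.5 and 402.7 ± 41.1 CPM (SD, n = 4), a log2 fold change of 0.24 (SE 0.12, 95% interval -0.04 to 0.51) with an adjusted p of 0.142 in edgeR. Without VC tumour 4 the edgeR estimate was 0.32 with an adjusted p of 0.0496.

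Csf2 (Entrez 12981, chr11:54247271-54249667, minus strand), the gene of GM-CSF, was scarce in every tumour. The 4 VC tumours had 7, 3, 13 and 20 counts and the 4 miR-21-KD tumours 23, 38, 28 and 36 counts. As levels these were 0.516, 0.239, 1.02 and 1.63 CPM against 1.86, 2.99, 2.27 and 2.82 CPM. Every miR-21-KD tumour was above every VC tumour, and VC tumour 2 was at the limit of 3 counts. The mean rose from 0.854 ± 0.614 to 2.48 ± 0.516 CPM (SD, n = 4), which in edgeR was a log2 fold change of 1.54 (SE 0.48, interval 0.45 to 2.63, fold 1.36 to 6.18) with an adjusted p of 0.0343. The call was lost with most tumours left out, since edgeR's adjusted p was between 0.0505 and 0.0819 when any of VC tumours 1 to 3 or miR-21-KD tumours 1 to 4 was left out, and 0.0146 without VC tumour 4. An antisense gene, Gm12223, overlaps Csf2, and the strand setting of the counting is not given in the sources used here.

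Csf3 (Entrez 12985, chr11:98701263-98703629, plus strand), the gene of G-CSF, varied widely within both groups. VC tumours held 74.9, 55.6, 106.6 and 40.1 CPM, and miR-21-KD tumours 11.9, 100.8, 56.8 and 43.4 CPM. The highest VC tumour and the highest miR-21-KD tumour were nearly level, and the lowest of all was miR-21-KD tumour 1. Means of 69.3 ± 28.7 and 53.2 ± 36.9 CPM (SD, n = 4) gave a log2 fold change of -0.38 (SE 0.55, 95% interval -1.62 to 0.86, edgeR adjusted p of 0.598). The estimate was -0.90 without miR-21-KD tumour 2, -0.10 without VC tumour 3 and -0.05 without miR-21-KD tumour 1. In tumour order Csf3 did not go with its receptor: miR-21-KD tumour 1 was the lowest of 8 in Csf3 and the highest of 8 in Csf3r.

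Csf3r (Entrez 12986, chr4:126024550-126044440, plus strand) encodes the G-CSF receptor of neutrophils and their precursors. Its levels were 118.1, 50.8, 62.3 and 76.0 CPM in VC tumours and 184.2, 108.3, 108.1 and 119.0 CPM in miR-21-KD tumours. VC tumour 1 lay inside the miR-21-KD range and the other 3 VC tumours lay below it. The mean was 76.8 ± 29.4 CPM in VC and 129.9 ± 36.6 in miR-21-KD (SD, n = 4), a log2 fold change of 0.76 (SE 0.28, interval 0.12 to 1.39) and an adjusted p of 0.0581 in edgeR, just above the threshold of 0.05. Without VC tumour 1 these were 1.04 and 0.0141. With tumours of the same replicate number paired by a block, edgeR gave 0.79 (SE 0.10) and an adjusted p of 0.00326, among 45.1% of all genes called with that block.

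Calprotectin is the dimer of S100a8 and S100a9, the most abundant cytosolic protein of neutrophils, which binds calcium and metal ions and signals through Tlr4. S100a8 (Entrez 20201, chr3:90668978-90670035, plus strand) was at 180.6, 64.9, 53.8 and 111.2 CPM in VC tumours and at 86.7, 55.3, 91.4 and 134.8 CPM in miR-21-KD tumours. S100a9 (Entrez 20202, chr3:90692632-90695721, minus strand) was at 409.1, 147.1, 137.8 and 243.6 CPM and at 243.9, 143.1, 217.3 and 307.5 CPM. For both genes VC tumour 1 was the highest of 8 and VC tumour 3 the lowest, so that VC tumours enclosed the whole range of miR-21-KD tumours. The S100a8 means of 102.6 ± 57.6 and 92.0 ± 32.7 CPM (SD, n = 4) gave a log2 fold change of -0.16 (SE 0.40, 95% interval -1.07 to 0.75, edgeR adjusted p of 0.773). The S100a9 means of 234.4 ± 125.9 and 228 ± 68.1 CPM gave -0.04 (SE 0.37, interval -0.88 to 0.80, edgeR adjusted p of 0.94). Changes of up to 1.68-fold for S100a8 and 1.74-fold for S100a9 in the upward direction lie within the intervals. The ratio of S100a9 to S100a8 counts stayed between 2.19 and 2.56 in VC and between 2.28 and 2.81 in miR-21-KD tumours.

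Retnlg (Entrez 245195, chr16:48872621-48874496, plus strand) encodes resistin-like gamma, a secreted protein of marrow and blood neutrophils. It was at 40.4, 17.7, 8.51 and 30.9 CPM in VC tumours and at 43.2, 28.1, 52.8 and 57.8 CPM in miR-21-KD tumours. Of the miR-21-KD tumours 3 were above every VC tumour, and the remaining one was below VC tumours 1 and 4. The means were 24.4 ± 14.1 and 45.5 ± 13.1 CPM (SD, n = 4), with a log2 fold change of 0.90 (SE 0.43, interval -0.08 to 1.88) and an adjusted p of 0.126 in edgeR. Limma-voom with quality weights, which gives less weight to tumours that deviate, put it at 1.72 with an adjusted p of 0.00548.

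Ngp and Camp, the genes of a cathelicidin-related granule protein and of the antimicrobial peptide cathelicidin, had the largest coefficients of variation among tumours of a group, at 91.9% in VC and 89.2% in miR-21-KD for Ngp and 103% and 108% for Camp. Ngp (Entrez 18054, chr9:110419747-110423012, plus strand) was at 36.9, 4.31, 5.28 and 44.1 CPM in VC tumours and at 14.9, 6.60, 16.6 and 51.8 CPM in miR-21-KD tumours. Camp (Entrez 12796, chr9:109847379-109849617, minus strand) was at 4.87, 0.479, 0.315 and 6.46 CPM and at 3.15, 1.18, 3.25 and 14.0 CPM. VC tumours 1 and 4 were high and VC tumours 2 and 3 low for both genes, and miR-21-KD tumour 4 was the highest of all. The highest tumour exceeded the lowest 10.2-fold in VC and 7.85-fold in miR-21-KD for Ngp, and 20.5-fold and 11.9-fold for Camp. With means of 22.6 ± 20.8 and 22.5 ± 20.1 CPM (SD, n = 4), Ngp had a log2 fold change of -0.01 (SE 0.85, 95% interval -1.94 to 1.92, edgeR adjusted p of 0.993). Camp means were 3.03 ± 3.11 and 5.40 ± 5.82 CPM, and its log2 fold change was 0.83 (SE 0.99, interval -1.43 to 3.09, edgeR adjusted p of 0.525). A range from 0.261-fold to 3.77-fold for Ngp and from 0.372-fold to 8.51-fold for Camp lies within these intervals. Without miR-21-KD tumour 4 the Camp estimate turned to -0.26.

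Reads of Ngp per read of Camp numbered 7.58, 9.0, 16.8 and 6.82 in VC tumours and 4.72, 5.6, 5.1 and 3.7 in miR-21-KD tumours. The groups did not overlap in this ratio, which was chosen after its values were seen and was not tested. In VC tumours 2 and 3 it rests on 6 and 4 counts of Camp.

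The order of the tumours was nearly the same for Ngp and Camp, which is a description over 8 libraries that share one scaling. From the highest down it was miR-21-KD tumour 4, VC tumour 4, VC tumour 1, miR-21-KD tumours 3, 1 and 2, and then VC tumours 2 and 3 in either order. After the group means were taken off, the log2 CPM of Ngp and Camp had a Pearson correlation of 0.991 over 8 tumours, and that of S100a8 and S100a9 was 0.987. Each of these 4 genes was the closest of all tested genes to its partner by this measure. Retnlg went with S100a8 at 0.928, and Csf3r with S100a9 at 0.768. The ligands did not follow: Csf1, Csf2 and Csf3 had correlations with S100a9 of 0.0984, 0.0202 and -0.352. The receptor and calprotectin had different orders of tumours, and Csf3r counts per S100a9 count were 0.289 to 0.453 in VC and 0.387 to 0.757 in miR-21-KD tumours, ranges that overlap.

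**Figure D3:**
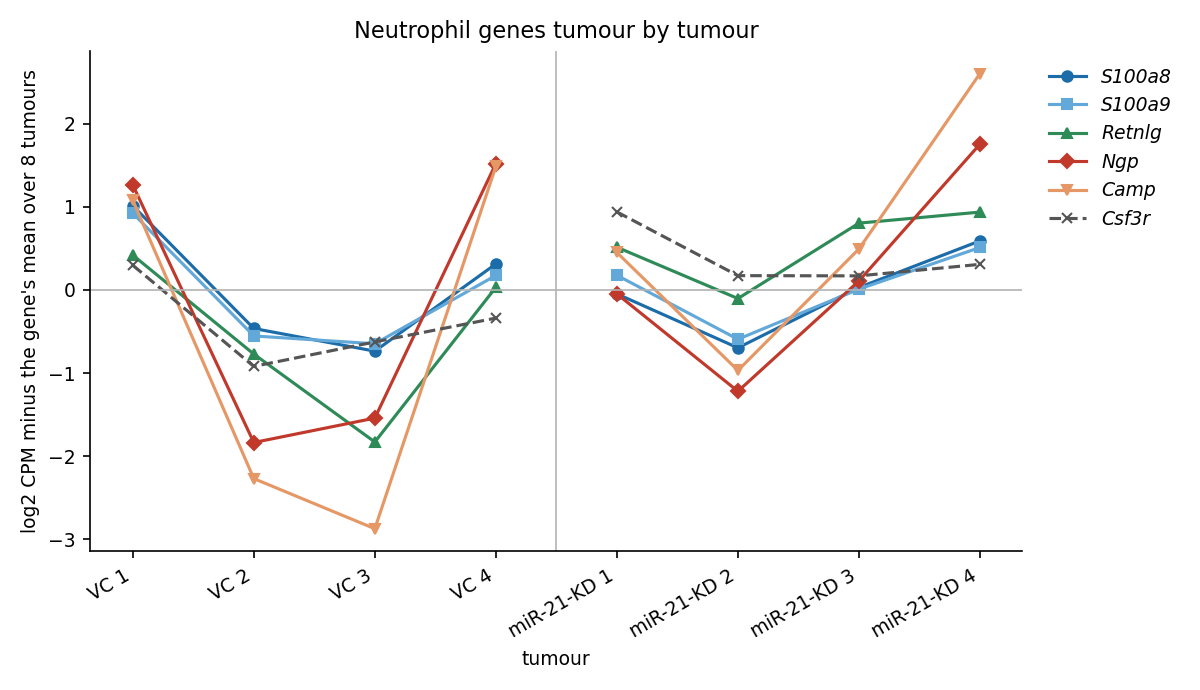
Log2 CPM of 6 neutrophil genes in each of the 8 tumours, minus the mean of the gene over all 8, with lines joining the tumours of a group only to guide the eye (the numbers have no order). Ngp and Camp move together over the widest range, S100a8 and S100a9 together over a narrower one, and VC tumours 2 and 3 are low for all 6 genes.

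The genes closest to the others by that correlation, given as names of like pattern only, were Gja5 (0.988), Svep1 (0.984) and Zfhx4 (0.981) for Csf3r. For Retnlg they were Cldn15 (0.996), Tmprss4 (0.972) and E230016K23Rik (0.965). Sort1 (0.981) and Lgals12 (0.979) followed S100a8 for S100a9, Abca8b (0.977) and Zbtb16 (0.97) followed S100a9 for S100a8, and Aldh1l1 came next to the partner for both Ngp (0.976) and Camp (0.981), before Bin3 (0.974) and Ppp2r5a (0.981). For the ligands they were Gm6211 (0.97), Ap3m1 (0.955) and Ficd (0.951) with Csf1, Rps15a-ps4 (0.966), Zfp593 (0.96) and Trim27 (0.956) with Csf2, and Dyrk3 (0.997), Tmem238 (0.994) and Zfp777 (0.992) with Csf3. Mmrn1 had Elane (0.996), Polr2g (0.984) and Rps15a-ps5 (0.975). These values are among the highest of 14382 genes over only 8 tumours, and those of scarce genes such as Csf2, Mmrn1, Elane and Gm6211 rest on few counts.

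Mmrn1 (Entrez 70945, chr6:60924976-60989378, plus strand) was the scarcest of the genes. VC tumours had 16, 8, 11 and 40 counts and miR-21-KD tumours 2, 4, 6 and 12 counts. The levels were 1.18, 0.638, 0.867 and 3.27 CPM against 0.162, 0.314, 0.487 and 0.939 CPM. Below every VC tumour were 3 of 4 miR-21-KD tumours, while VC tumour 4, which the second principal component set apart, was far the highest. The means were 1.49 ± 1.21 and 0.476 ± 0.337 CPM (SD, n = 4), with a log2 fold change of -1.62 (SE 0.66, interval -3.11 to -0.13) and an adjusted p of 0.0783 in edgeR. Without VC tumour 4 these were -0.90 and 0.209, and with the block for the replicate number -1.58 (SE 0.39) and 0.0202. VC tumour 4 also had the most counts of the lymphatic endothelial genes Stab2 (48), Reln (46) and Lyve1 (530), but not of Flt4, Pdpn or Nrp2. The whole list of 8 genes summed to 330 to 401 CPM in VC tumours, against 417 to 527 CPM with the knockdown. Its highest genes were Nrp2 (VC mean 235 CPM, miR-21-KD mean 223) and Pdpn (73.9 and 212). Only Pdpn was called, and fibroblasts also make it. Lyve1 (27.8 and 20.2 CPM), Flt4 (15.35 and 10.43) and Reln (1.69 and 1.21) had lower means with the knockdown and Stab2 (1.23 and 1.71) a higher one, without a call. Of 14 platelet and megakaryocyte genes, Gp5, Gp6, Gp9 and Tubb1 had 0 to 3 counts in every tumour, Gp1ba had 9 to 24 and Itga2b 60 to 118. The list summed to 417 to 642 CPM in VC tumours, against 501 to 845 CPM with the knockdown. Its highest genes were F13a1 (VC mean 314 CPM, miR-21-KD mean 267) and Pf4 (110 and 341). Of the 7 tested genes only Pf4 was called, and macrophages also make it. Gp1ba had a log2 fold change of -0.06 and Itga2b of 0.47, without a call. The part of lymphatic endothelial cells, platelets and megakaryocytes in the level of Mmrn1 was not tested. Of the EMILIN and multimerin family, 2 of 4 tested genes were higher and 0 lower (50% called, against 39.1% of all tested genes): Emilin2 (0.79, adjusted p of 0.00632) and Emilin1 (1.48, 0.0112), which encode elastin-associated matrix glycoproteins. The endothelial Mmrn2 had a log2 fold change of 0.54 and an adjusted p of 0.0596, or 0.0249 with the replicate block.

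The ligands and receptors of the CSF family were then read as a list from the same fit. Of 13 listed genes 12 were tested, and 7 rose and 0 fell, at a median log2 fold change of 1.10. This was 58.3% of the list, against the 39.1% of all tested genes, and these and the later shares of lists were not compared by a test. Besides Csf2, the genes that rose were Il5, the eosinophil growth factor, and the receptor chains Csf1r, Csf2ra, Csf2rb, Csf2rb2 and Il3ra. For these 6 the edgeR call held when any tumour was left out. The third ligand of the common beta chain, Il3, had 0 to 11 counts and was not tested.

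Il5 was at 1.77, 0.638, 0.473 and 0.654 CPM in VC tumours and at 8.81, 2.91, 13.6 and 10.6 CPM in miR-21-KD tumours, a log2 fold change of 3.32 (SE 0.57) with an edgeR adjusted p of 0.00673. Its receptor chain Il5ra had the values 1.24 and 0.170 on the same measures, with a VC tumour at 1 count. Csf1r, the M-CSF receptor of macrophages, was at 458, 424, 333 and 600.0 CPM in VC tumours and at 1200.0, 624, 920.0 and 958 CPM in miR-21-KD tumours. It rose by a log2 fold change of 1.03 (SE 0.23, edgeR adjusted p of 0.0127), so that Csf1r counts per Csf1 count went from 1.05 to 1.48 in VC to 1.72 to 2.87 in miR-21-KD tumours, without overlap (a ratio with no test). Il34, the other ligand of Csf1r, had a log2 fold change of -0.30 and an adjusted p of 0.171.

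Csf2ra, the specific chain of the GM-CSF receptor, was at 32.3, 24.6, 24.5 and 46.4 CPM in VC and at 80.8, 47.4, 64.0 and 75.4 CPM in miR-21-KD tumours (log2 fold change 1.07, SE 0.24, edgeR adjusted p of 0.0128). The common chain Csf2rb was at 265, 125, 157 and 286 CPM and at 567, 395, 422 and 445 CPM (1.13, SE 0.27, 0.0141). Its IL-3-specific copy Csf2rb2 was at 153, 68.2, 88.2 and 140.0 CPM and at 323, 233, 255 and 265 CPM (1.26, SE 0.25, 0.00928), and reads of these near-identical copies may have been split between them. Il3ra, the specific chain for IL-3, was at 5.31, 4.71, 7.33 and 9.81 CPM and at 19.2, 10.8, 15.5 and 21.5 CPM (1.30, SE 0.29, 0.0119). In all of these receptor chains every miR-21-KD tumour was above every VC tumour. Macrophage and monocyte markers moved alongside, with 11 of 15 higher and 0 lower in edgeR (5 higher without VC tumour 3, and 1 lower with DESeq2). Their summed level was 3820 to 5760 CPM in VC and 8010 to 13100 CPM in miR-21-KD tumours. The part of these cells in the receptor levels was not tested.

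**Figure D4:**
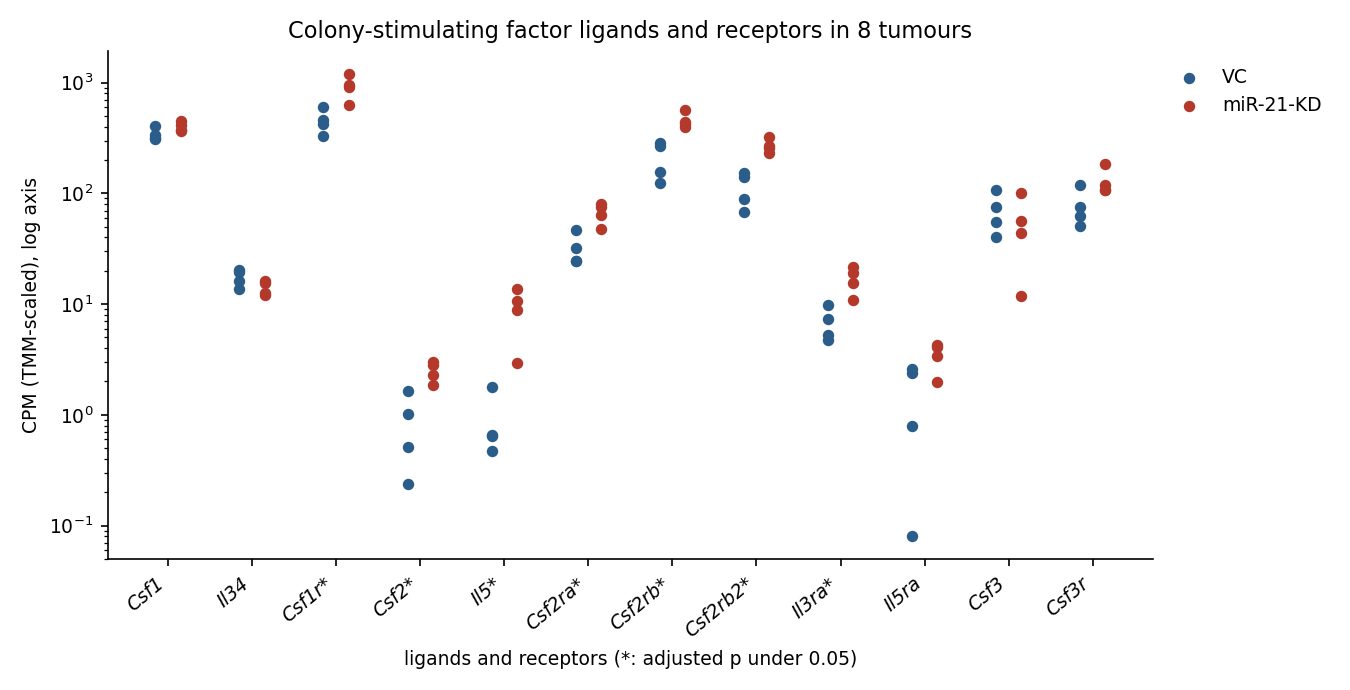
CPM (log axis) of the 12 tested CSF ligands and receptors in the 8 tumours, VC in blue and miR-21-KD in red, with the names of genes at adjusted p under 0.05 starred. Every starred gene shows all miR-21-KD tumours above all VC tumours, whereas the groups overlap for Csf1, Il34, Il5ra, Csf3 and Csf3r.

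Downstream of these receptors, 10 of 20 signalling genes rose and 1 fell (55% called, against 39.1% of all tested genes, median 0.41, 6 higher without VC tumour 2 or VC tumour 3). The strongest by adjusted p were Cebpd (1.43, 0.00571) and Cebpa (1.51, 0.00694), factors of myeloid differentiation, and the adaptor Shc1, which fell by 0.66 on the log2 scale (0.00501).

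Ngp and Camp are 2 of a list of neutrophil granule genes. Of 22 tested, 11 rose and 0 fell (50% called) at a median log2 fold change of 0.91 (5 higher without VC tumour 3, 7 without miR-21-KD tumour 4). Chil3, the lectin Ym1, went from 25.5, 7.42, 8.98 and 33.3 CPM in VC to 753, 187, 871 and 1190.0 CPM in miR-21-KD tumours (5.32, edgeR adjusted p of 0.00523). Mmp9, gelatinase B, rose by 1.76 (0.00501), and Ltb4r1, the leukotriene B4 receptor, by 1.02 (0.00571). All 3 are also made by macrophages, whose markers moved as given above. Of the azurophil genes of the earliest precursors, Prtn3 rose by 1.66 (0.0426), a call kept only without VC tumour 4 or miR-21-KD tumour 2 among the tumours left out (0.0247 to 0.122). Mpo had a log2 fold change of 1.62 (0.161), Ctsg of 0.80 (0.143) and Elane of 1.12 (0.272, or 0.0486 with the replicate block). The summed level of the list was 2100 to 3530 CPM in VC and 3370 to 7300.0 CPM in miR-21-KD tumours.

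Of 30 tested genes of mature neutrophils, 10 were higher and 1 lower, with a median of 0.77. The 36.7% called was near the 39.1% of all tested genes. The count of higher genes ran from 3 without VC tumour 3 and 5 without miR-21-KD tumour 4 to 18 without VC tumour 1. Il1rn, the interleukin 1 receptor antagonist, rose by 1.6 (edgeR adjusted p of 0.00601), Slfn4 by 1.68 (0.0140) and Acod1, the itaconate enzyme, by 1.79 (0.0144), all of which macrophages make too. The gene that fell was Padi4, which citrullinates histones, at 372, 546, 477 and 402 CPM in VC and 25.8, 192, 140.0 and 87.1 CPM in miR-21-KD tumours (-2.01, 0.0166, and 0.0513 without miR-21-KD tumour 4). Its VC mean of 449 CPM was the highest of the list, above S100a9 (234 CPM) and Csf3r (76.8 CPM). Which cell type transcribed Padi4 was not tested. Ly6g, the defining surface marker of mouse neutrophils, had 1 to 18 counts and was not tested, and G0s2 was at 0 counts in all 8 tumours. The summed level of the list overlapped between the groups, at 1190 to 1940 CPM in VC and 1580 to 2030 CPM in miR-21-KD tumours.

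Among attractants and inducers of neutrophils, 10 of 17 tested genes were higher and 0 lower in edgeR (58.8% called), at a median of 1.07 (6 higher without VC tumour 3). The count of lower genes was 1 without miR-21-KD tumour 2, in DESeq2, in both forms of limma-voom and with the replicate block. Cxcl3, a ligand of Cxcr2, was at 19.6, 5.11, 6.94 and 9.89 CPM in VC and at 80.7, 31.3, 40.1 and 54.8 CPM in miR-21-KD tumours (2.31, edgeR adjusted p of 0.00855). Osm, the cytokine oncostatin M, rose by 1.5 (0.00735), and Ltb4r1, given above at 1.02, is in both lists. Cxcl1, which also attracts neutrophils through Cxcr2, had -0.49 and an adjusted p of 0.116. Il17a, an inducer of G-CSF, was at 0 counts in all 8 tumours. Il23a was at -1.20 with an adjusted p of 0.056, and at 0.0267 with the replicate block.

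Relatives and partners of calprotectin split in both directions, with 4 of 15 tested genes higher and 5 lower (60% called) at a median of 0.10 (2 higher without miR-21-KD tumour 4). S100a14, an epithelial member of the family, rose by 2.82 (edgeR adjusted p of 0.00672). S100a7a fell by 1.48 (0.00667) and S100a10, the annexin A2 partner, by 0.78 (0.00779) on the log2 scale. The summed level of the list was 3770 to 4960 CPM in VC and 2160 to 3340 CPM in miR-21-KD tumours. Tlr4, a receptor of calprotectin, was at 64.7, 56.6, 45.9 and 45.5 CPM in VC and at 96.8, 69.6, 88.9 and 75.9 CPM in miR-21-KD tumours (0.64, 0.0138).

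Markers of other cells that a tumour holds were read from the same fit, with the 19.6% of all tested genes called higher and the 19.5% called lower as their background. Dendritic cell markers were higher for 5 of 9 and lower for 0 (8 higher without miR-21-KD tumour 2), led by Ccr7 (1.65, adjusted p of 0.00656), Flt3 (1.78, 0.00663) and Siglech (1.83, 0.0099), and summed to 64.6 to 197 CPM in VC and 257 to 427 CPM in miR-21-KD tumours. Mast cell and eosinophil markers were higher for 4 of 10 and lower for 0, led by the eosinophil genes Ear2 (2.71, 0.0085), Siglecf (1.96, 0.0229) and Ccr3 (1.53, 0.0236). That count was 1 without VC tumour 2 or miR-21-KD tumours 1, 3 or 4, and 2 without VC tumour 3. T cell markers were higher for 6 of 11 and lower for 0 (2 higher without VC tumour 3, 11 without VC tumour 4), led by Cd247 (1.59, 0.0102), Cd4 (1.56, 0.0128) and Icos (1.19, 0.0165). The part of these cells in the levels of Csf2 and Il5, which T cells also make, was not tested. For macrophages the genes named are Ms4a7 (1.37, 0.00571) and Mrc1 (1.24, 0.00928).

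B cell markers were called for 0 of 6 in edgeR, DESeq2 and limma-voom, with 0 at an unadjusted p under 0.05 in edgeR (2 higher without VC tumour 4, 1 with the replicate block), and summed to 22.2 to 1240 CPM in VC and 62.6 to 245 CPM in miR-21-KD tumours. Red blood cell markers were called for 0 of 3 in these tools, also with 0 at an unadjusted p under 0.05 (2 higher without miR-21-KD tumour 2), with sums of 32.4 to 63.4 and 24.3 to 95.6 CPM. Endothelial markers were higher for 2 of 11 and lower for 0, Vwf (1.96, 0.00785) and Tek (1.10, 0.0378). That count was 4 without VC tumour 1 or with the block, and 1 without VC tumours 2, 3 or 4 or miR-21-KD tumours 1, 3 or 4. With the block, or without VC tumour 3, 1 gene was lower, which with the block was Emcn (adjusted p of 0.0256, against 0.108 without it). Lymphatic endothelial markers were higher for 1 of 6 and lower for 0, Pdpn (1.52, 0.0134), which fibroblasts also make (2 higher without VC tumour 4, and 1 lower without VC tumour 3 or miR-21-KD tumour 1 and with DESeq2 or library size scaling), while Prox1 had 1 to 6 counts and Ccl21a 0 to 3. Platelet markers were higher for 1 of 7 and lower for 0, Pf4 (1.63, 0.00571), which macrophages also make.

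Epithelial markers were higher for 7 of 9 and lower for 1, led by Krt19 (3.60, 0.00688), Krt14 (3.08, 0.011) and Epcam (1.93, 0.0182). The gene that fell was Krt18, from a mean of 1022 to 460 CPM (-1.15, 0.0374), a call lost without VC tumours 1, 2 or 3 or miR-21-KD tumours 3 or 4 (0.0175 to 0.0941 over the 8 tumours left out). Krt8 had -0.88 and an adjusted p of 0.087, or 0.0413 with the replicate block. The summed level of the list overlapped, at 1290 to 2230 CPM in VC and 1090 to 2020 CPM in miR-21-KD tumours. Without VC tumours 2 or 3 the count of higher genes was 3, and without miR-21-KD tumours 1, 3 or 4 it was 4. Fibroblast markers in edgeR were higher for 7 of 9 and lower for 0, led by Col1a1 (1.48, 0.0134), Col1a2 (1.44, 0.0139) and Dcn (1.90, 0.0185). The count of higher genes was 2 without VC tumour 3, and 4 without VC tumour 2 or miR-21-KD tumours 1 or 4. The count of lower genes was 1 without miR-21-KD tumour 1, and 0 to 1 over the alternatives that kept every tumour. Fibroblast markers summed to 3460 to 8870.0 CPM in VC and 11000.0 to 24800.0 CPM in miR-21-KD tumours. Fibroblasts, endothelium and tumour cells also transcribe Csf1 and Csf3, and the part of each cell type in the ligand levels was not tested.

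The calls near the threshold moved with the processing. Csf3r had an adjusted p of 0.0216 in DESeq2, 0.0423 in limma-voom and 0.00963 in limma-voom with quality weights, against 0.0581 in edgeR, and its estimate lay between 0.54 and 1.04 over all alternatives. For Csf2 the adjusted p lay between 0.00692 and 0.157. Over 18 alternatives Csf3, S100a8, S100a9 and Ngp passed in none.

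**Figure D5:**
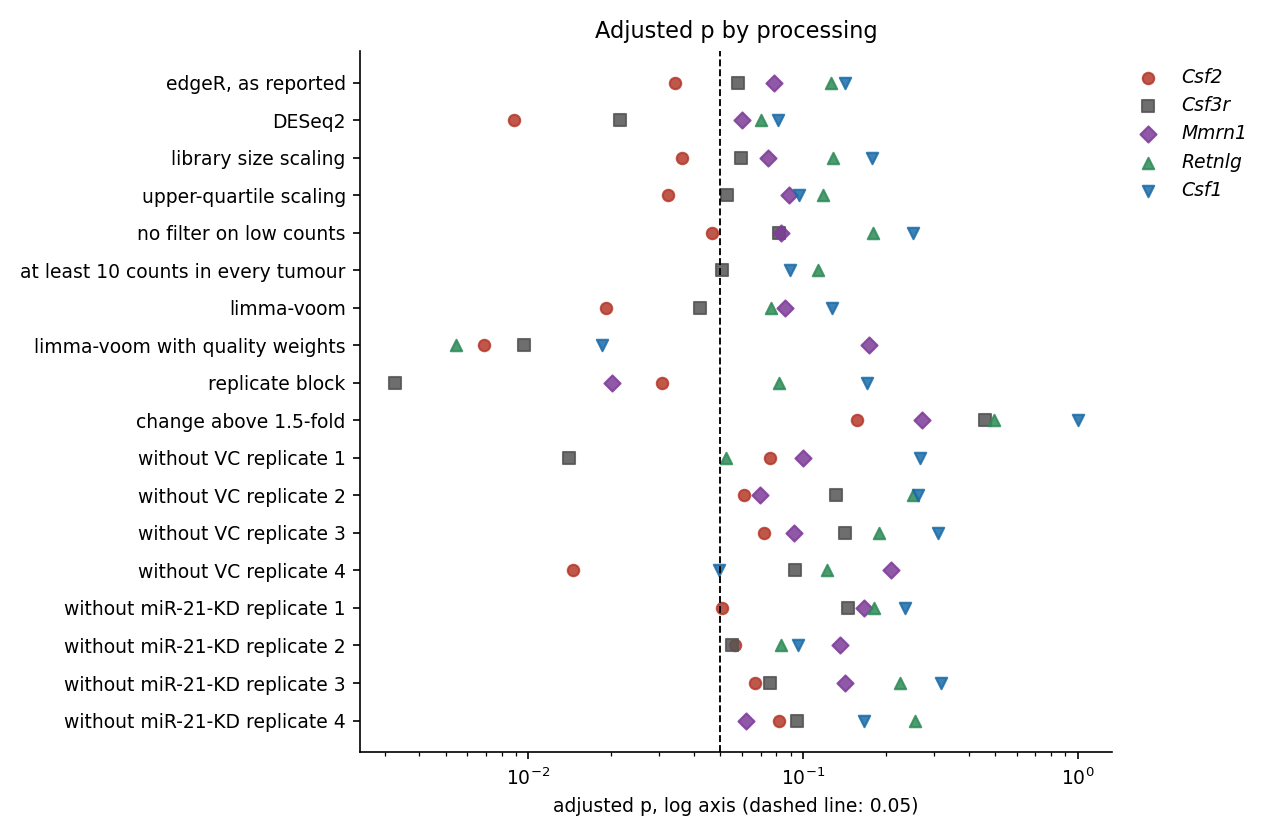
Adjusted p (log axis, dashed line at 0.05) of Csf2, Csf3r, Mmrn1, Retnlg and Csf1 under the processing used and each alternative, with each tumour left out in turn at the bottom. Csf2 lies left of the line under the reported processing and right of it when any tumour but VC tumour 4 is left out, and Csf3r crosses to the left in DESeq2, limma-voom with and without quality weights, the replicate block and without VC tumour 1.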

How the data were processed

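RNA from 8 whole tumours, 4 for each group, was sequenced, and the replicates are separate tumours. The tests set the difference between groups against the spread between tumours of a group. All tumours of a group came from the same pooled line, so the spread between separately made lines is not covered. Per gene, identified by its Entrez number, the authors deposited the raw read counts. The submitters' processing notes name the build mm10 with Subread, featureCounts, edgeR and limma, and the annotation and strand setting are not given in the sources used here. Positions are those of GENCODE vM21 on GRCm38, the same build. Symbols of GRCm38.p6 matched 25275 of 27179 identifiers, and 237 tested genes had none. The proteomics table was not used.

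Counts were filtered with filterByExpr (a minimum of 10 counts and of 15 in total), and the 14382 genes kept held 99.85% of counts. They were scaled by TMM and tested with the robust quasi-likelihood test of edgeR 4.0.16 in R 4.3.3, with Benjamini-Hochberg adjustment over all tested genes and a threshold of 0.05. Standard errors came from the estimate and the F statistic and 95% intervals from its degrees of freedom. CPM uses the TMM-scaled library, and log2 CPM a prior count of 2. Members and gene lists were chosen with earlier results of these data known. The text names all 10 genes, every tested CSF ligand and receptor, the 3 genes of smallest adjusted p in each other list, markers near 0 and the 3 closest genes by correlation. Other genes named in those lists, such as Padi4, Prtn3, Krt18, Cxcl1 and Tlr4, were chosen after their values were seen. A result under this rule is not reported here. The scripts were tested on simulated data.

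Tumours of both groups carry the numbers 1 to 4, and no source names a pairing. After removal of group means, same-numbered tumours correlated at 0.272, 0.421, 0.175 and 0.376, all above 0.1, while some with different numbers correlated as well (VC tumour 3 with miR-21-KD tumour 2 at 0.393, VC tumour 4 with miR-21-KD tumour 1 at 0.334, VC tumour 2 with miR-21-KD tumour 3 at 0.204). The numbers are thus a hint of pairing from the data only, and the result with the replicate number as a block is given where it changes the call of a gene whose p is given. Other alternatives were DESeq2 1.42.0, no scaling beyond library size, upper-quartile scaling, all genes without a filter, only genes with 10 counts or more per tumour, limma-voom (limma 3.58.1) with and without quality weights, glmTreat at 1.5-fold, a threshold of 0.01 and each tumour left out in turn.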

Additional observations from a re-analysis of the deposited data

Results flagged for a closer look

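Of 20 sets of 4 tumours examined (10 genes in 2 groups), 2 had a tumour far from its nearest neighbour by Dixon's criterion (gap over range above the 95% critical value), which chance gives in about 1 of 20. Csf3r was at 184 CPM in miR-21-KD tumour 1, with the next tumour at 119 CPM and a gap of 0.857 of the range. Camp was at 14.0 CPM in miR-21-KD tumour 4, with the next at 3.25 CPM and a gap of 0.839 of the range.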

How the results depend on the processing

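Over the alternatives, the count of genes called was 334 higher and 208 lower for changes above 1.5-fold, 670 and 756 at an adjusted p under 0.01, 3439 and 3111 with DESeq2, 3309 and 3176 with the replicate block, 4055 and 4147 with limma-voom and quality weights, and between 1449 and 3290 higher and 1487 and 3550 lower with each tumour left out. Of the 10 genes, the number called higher was 2 with DESeq2 and limma-voom, 5 with quality weights (where the calls over all genes were also the most numerous), 0 with the filter of 10 counts or more per tumour, above 1.5-fold or under 0.01, and 0 to 2 with each tumour left out. With the replicate block it was 2 higher (Csf2, Csf3r) and 1 lower (Mmrn1), with log2 fold changes of 0.79 for Csf3r, -1.58 for Mmrn1, 0.05 for S100a9 and 0.24 for Ngp, and the pairing by number changed no other call of the 10 genes. Csf2 (1.54) lost its call above 1.5-fold (adjusted p of 0.157) and under 0.01, and ran from 1.23 to 2.04 with tumours left out. Quality weights gave 0.33 for Csf1 (adjusted p of 0.0185), 0.85 for Csf3r, 1.72 for Retnlg, 2.55 for Camp (adjusted p of 0.0492), 0.42 for S100a8, 0.43 for S100a9 and 1.34 for Ngp. Csf3r was also called with DESeq2 (0.78) and limma-voom (0.79). S100a9 and Ngp, both near 0, turned to 0.01 and 0.04 under upper-quartile scaling and the filter of 10 counts or more per tumour, and to 0.05 and 0.29 with limma-voom, and Ngp to 0.01 with DESeq2. With each tumour left out, the log2 fold changes ran from 0.17 to 0.32 for Csf1, 0.54 to 1.04 for Csf3r, -0.40 to 0.27 for S100a8, -0.23 to 0.37 for S100a9, -0.84 to 0.53 for Ngp, -0.90 to -0.05 for Csf3, -2.17 to -0.90 for Mmrn1, 0.61 to 1.26 for Retnlg and -0.26 to 1.49 for Camp. The cause of these shifts was not tested. Scaling moved the median of all genes only between -0.04 and 0.03. Csf2, Mmrn1 and Camp gave no value under that filter, and depth limits these 3 genes most, with as few as 2 to 4 counts in a tumour.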
